A study of Mus musculus with 2 samples.

Results

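The regions described here are E2F1 peaks that lie inside a gene, more than 5000 and up to 20000 bp from its transcription start site (TSS). They were chosen by position alone. A peak qualified if the authors' table lists it inside a gene, does not list it at any promoter, and puts its distance to the TSS of that gene between these limits. Of 5667 listed peaks, 464 (8.19%) met the rule, which is 20.3% of the 2288 intragenic peaks outside promoters. They lie in 453 genes, 442 with 1 such peak and 11 with 2. Of these genes, 449 could be matched to the RefSeq gene table, and 446 of them are protein-coding.

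The peaks come from ChIP-seq (chromatin immunoprecipitation and sequencing), in which an antibody enriches the genome fragments bound by one protein. The cells were C57Bl6J hepatocytes in primary culture, taken 36 h after adenofection with Ad-E2F1, which made them overexpress E2F1 per the series title. The 2 groups are 1 record of anti-E2F1 ChIP and 1 record of input chromatin, both from cells given the vector. Cells without it were not analysed here. The series text speaks of 2 replicates, each combining 2 ChIPs, but the peak list is not divided by replicate. No value below therefore has a replicate error, and each test describes this list of peaks and not the variation between cultures. The depth of sequencing is unknown, as the list holds no read totals. A peak list does not measure transcripts, and the labelled cell type was not checked against marker expression. None of 25 marker genes of other liver cell types held an intragenic or promoter peak. A promoter peak was found in only 13.2% of all protein-coding genes and in 1 of 26 genes of secreted hepatocyte proteins. Nothing about cell type is therefore read from that absence.

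E2F1 belongs to a family of transcription factors that bind DNA with a DP partner and switch on genes of DNA replication and cell division. The retinoblastoma protein holds it in check until cyclin-dependent kinases release it. Its best known sites lie close to start sites, with a GC-rich core. In the liver it is also known for raising genes of lipid and glucose metabolism. Sites inside genes can belong to enhancers, to further start sites of the same gene or to other transcripts that start there. The file gives neither exons nor introns nor further start sites, so which of these a peak lies on was not tested.

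The sequence of the peak regions themselves was not used here, where no genome of their build (mm9) was read. Among the genes concerned, 80 carry a promoter peak as well, and promoter sequence from another build is shown for a few of these to set the folds at both places beside the letters at the start site. The 250 bases before the RefSeq start (build GRCm38.p6) were searched on both strands for an E2F core of 7 letters. The spellings searched were TTGGCGC as the main form, TTCGCGC as the second, TTCCCGC as the third and TTGCCGC as the last. Promoters of 5 genes are shown, each with a single RefSeq start, a promoter peak that no other gene shares and no overlap with another gene's promoter window. Rnf168 and Smc3 had the highest promoter folds among such genes. Phf19, picked after its values were seen, had nearly equal folds at both peaks, and Pink1 and Mtf1 had the intragenic peak well above the promoter peak. Capitals mark a match to the core. The positions are chr16:32277211-32277460 (plus strand) for Rnf168, chr19:53600146-53600395 (plus) for Smc3, chr2:34913977-34914226 (minus) for Phf19, chr4:138326297-138326546 (minus) for Pink1 and chr4:124802299-124802548 (plus) for Mtf1.
Rnf168: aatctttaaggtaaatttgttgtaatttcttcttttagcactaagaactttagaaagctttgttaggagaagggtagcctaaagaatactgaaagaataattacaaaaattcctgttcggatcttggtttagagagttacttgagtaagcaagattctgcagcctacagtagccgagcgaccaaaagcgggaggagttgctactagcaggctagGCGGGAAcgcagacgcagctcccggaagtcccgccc
Smc3: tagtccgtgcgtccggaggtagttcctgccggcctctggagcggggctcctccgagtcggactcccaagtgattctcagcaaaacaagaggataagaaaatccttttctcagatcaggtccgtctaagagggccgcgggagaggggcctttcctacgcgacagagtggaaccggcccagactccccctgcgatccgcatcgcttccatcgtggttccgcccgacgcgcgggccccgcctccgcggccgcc
Phf19: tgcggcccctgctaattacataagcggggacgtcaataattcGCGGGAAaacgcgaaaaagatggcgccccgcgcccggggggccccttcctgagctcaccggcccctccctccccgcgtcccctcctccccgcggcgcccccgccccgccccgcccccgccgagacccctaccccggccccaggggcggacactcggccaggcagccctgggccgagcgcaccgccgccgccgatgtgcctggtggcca
Pink1: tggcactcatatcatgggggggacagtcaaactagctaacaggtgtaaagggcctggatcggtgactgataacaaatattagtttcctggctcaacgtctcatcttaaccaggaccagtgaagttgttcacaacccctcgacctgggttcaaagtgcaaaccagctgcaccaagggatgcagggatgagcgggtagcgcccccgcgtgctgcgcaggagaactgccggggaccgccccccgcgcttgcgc
Mtf1: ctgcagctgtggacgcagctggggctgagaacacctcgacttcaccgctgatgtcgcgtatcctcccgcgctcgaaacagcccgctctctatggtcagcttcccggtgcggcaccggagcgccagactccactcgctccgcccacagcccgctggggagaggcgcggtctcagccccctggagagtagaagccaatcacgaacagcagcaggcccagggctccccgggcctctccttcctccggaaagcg

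Rnf168 and Phf19 each held 1 match, while Smc3, Pink1 and Mtf1 held none in this window. Matches are a description of letters, not of binding. Over all 32851 promoters from RefSeq, 7.89% held a match. Genes with a listed promoter peak had a match in 638 of 2897 promoters (interval 20.5% to 23.6%). Genes with an intragenic peak at 5 to 20 kb had 66 of 484 promoters with a match, or 13.6% (exact binomial 95% interval 10.7% to 17.0%). Where such a gene also had a promoter peak the count was 13 of 79 (16.5%, interval 9.06% to 26.5%), and where it had none 53 of 405 (13.1%, interval 9.96% to 16.8%). These last intervals overlap. The 7-letter core was chosen after a first search with 8 letters (a T before each spelling) had given few matches. With 8 letters the shares were 1.86% of all promoters, 6.87% for genes with a promoter peak and 3.10% (15 of 484) for genes with a peak at 5 to 20 kb, the same order as with 7. A gene with several starts enters once per start, and the intervals treat these starts as independent, which can make them too narrow. Of the 453 genes with a peak at 5 to 20 kb, 366 entered. All promoters together cover 27025 genes, more than the 21900 protein-coding ones. The median number of CG steps (C followed by G) per promoter was 16 for genes with a peak at 5 to 20 kb. It was 17 for genes with a promoter peak and 6 over all promoters. How far base composition or gene type sets these shares was not tested.

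Most of the 464 peaks were weak. Each peak has a fold, the authors' ratio of ChIP tags to the background expected from input, and a count of tags, the reads in the called region. The median fold was 3.91 (exact order-statistic 95% interval 3.79 to 4.11; quartiles 3.29 and 4.86) and the range 2.44 to 23.29. The median tag count was 146.5 (quartiles 97 and 206), in regions with a median length of 2064 bp. A fold below 5 was found at 358 peaks (77.2%). The authors' false discovery rate had a median of 4.01%, and 84 peaks (18.1%) had a rate of at most 1%, against 39.8% of all listed peaks. A fold of at least 10 was reached by 21 peaks (4.53%, interval 2.82% to 6.84%), against 12.8% of all listed peaks.

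The comparison with the intragenic peaks on either side asked whether peak strength at 5 to 20 kb resembles that near the start or that deep in the gene. Peaks at 5 to 20 kb were weaker than the 378 intragenic peaks within 5 kb. A fold at or above the list median of 4.93 was found in 111 of 464 (23.9%) against 171 of 378 (45.2%), where all listed peaks give 50.1%. The odds ratio was 0.381 (Fisher's exact test, two-sided, Benjamini-Hochberg adjusted over 8 tests, adjusted p = 6.72e-10). Median folds were 3.91 and 4.71, and median pileup heights 38 and 45. By single kilobases from the TSS, the median fold was 5.72, 4.75 and 4.695 up to 3 kb. It was 3.93 at 3 to 4 kb, 4.13 at 4 to 5 kb and 3.795 at 5 to 6 kb. The class difference therefore does not mark a change at 5 kb. A false discovery rate at or below the list median of 1.84% was found in 138 peaks (29.7%) against 182 (48.1%), beside 50.1% of the list (odds ratio 0.456, adjusted exact p = 2.13e-07). Tags at or above the list median of 149 were found in 48.9% and 55.8%, beside 50.1% of the list, a difference that missed the threshold (odds ratio 0.758, adjusted exact p = 0.0834). With the limit at the upper quartile of the list it was called, with 19.6% against 29.1% (odds ratio 0.594, adjusted exact p = 0.00241). Among only the peaks with a false discovery rate of at most 1%, the fold difference was not called (odds ratio 0.907, adjusted exact p = 0.894), nor among peaks with a score of at least 100 (odds ratio 0.753, adjusted exact p = 0.442). Under both of these limits the list medians were taken anew over the peaks kept, so the thresholds were not those given above. The difference in false discovery rate was also lost under both limits (odds ratios 0.702 and 0.575, adjusted exact p = 0.382 and 0.0573).

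Against the 1446 peaks deeper than 20 kb, the calls depended on the measure and on which peaks were kept. The share at or above the median fold of the list was 23.9% against 20.1%, which missed the threshold (odds ratio 1.25, adjusted exact p = 0.103). With the limit at the upper quartile of the list, 50 of 464 (10.8%) passed against 70 of 1446 (4.84%), with an odds ratio of 2.37 (adjusted exact p = 5.64e-05). It was also called with distance limits of 6000 and 15000 bp (odds ratio 1.55, adjusted exact p = 0.00653) and among peaks with a score of at least 100 (odds ratio 2.27, adjusted exact p = 0.00612). Tags at or above the list median were found in 227 of 464 peaks (48.9%) against 578 of 1446 (40.0%), with an odds ratio of 1.44 (adjusted exact p = 0.00213). That call was also made with other distance limits and at the upper quartile, but the direction turned among peaks with a false discovery rate of at most 1% (39.3% against 47.7%, odds ratio 0.709, adjusted exact p = 0.382) and among those with a score of at least 100 (39.8% against 44.3%, odds ratio 0.831, adjusted exact p = 0.506). The false discovery rate was at or below the list median in 29.7% against 23.8% (odds ratio 1.36, adjusted exact p = 0.0235). That last call was lost when only peaks listed for no second gene were used (odds ratio 1.27, adjusted exact p = 0.197), and among peaks with a rate of at most 1% (odds ratio 2.03, adjusted exact p = 0.0717). In the comparisons limited by rate or by score, the list median was again that of the peaks kept.

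**Figure D1:**
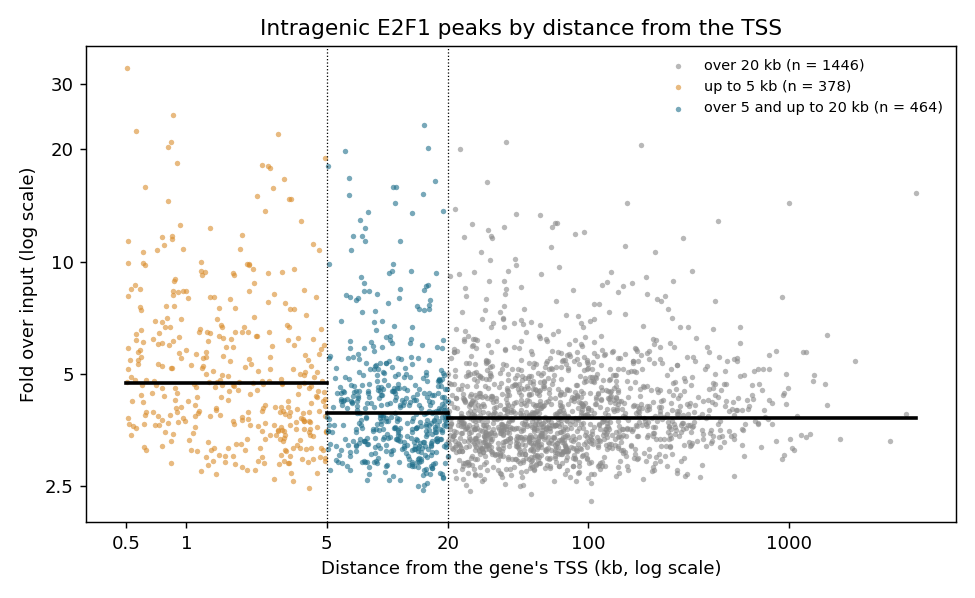
Fold over input (log scale) of each intragenic peak outside promoters against its distance from the TSS of its gene in kb (log scale); each point is 1 peak, dotted lines mark 5 and 20 kb, and black bars are class medians. The class medians are 4.71 within 5 kb, 3.91 between 5 and 20 kb and 3.81 beyond.

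**Figure D2:**
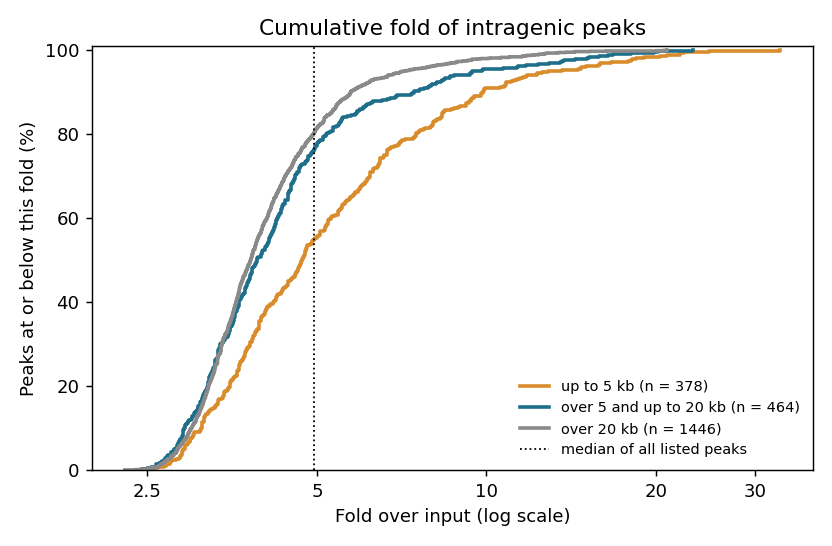
Cumulative share of peaks (%) at or below each fold (log scale) in the 3 distance classes of intragenic peaks; the dotted line is the median fold of all listed peaks, 4.93. The curve for 5 to 20 kb runs near that of the deeper peaks at low folds and to the right of it at high folds.

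Within the window, the number of peaks fell from 190 at 5 to 10 kb to 141 at 10 to 15 kb and 133 at 15 to 20 kb. Gene lengths were not taken into account. The median fold was 4.19, 3.81 and 3.79 in the 3 bins. The share with a fold below 5 was 71.6%, 77.3% and 85.0%. Across the 464 peaks distance and fold had a Spearman correlation of -0.14, a weak relation given as a description, since all points come from the same pair of libraries. The median over single kilobases moved between 3.23 and 4.48 with no steady course. Just outside the lower limit lay peaks in 1700027A23Rik (4960 bp, fold 3.50) and Ncstn (4967 bp, fold 3.49), and just inside it Dennd1b (5025 bp, fold 3.82) and Fam111a (5068 bp, fold 18.09). At the upper limit the last peaks inside were in 1110059E24Rik (19980 bp, fold 3) and Zfp292 (19982 bp, fold 4.21), and the first outside in Nab1 (20001 bp, fold 3.89) and Farp1 (20098 bp, fold 2.98).

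A small set of strong peaks lay above this low level, without a clear gap. The cut was set on fold itself: below it folds reached 9.86, and above it they began at 10.71. A fold of at least 10 was also found in 8.99% of intragenic peaks within 5 kb and 2.01% of those beyond 20 kb. The 21 with a fold of at least 10 had a median fold of 14.36 in regions with a median length of 1333 bp, while the other 443 had a median fold of 3.83 and a median length of 2122 bp. Over all 464 peaks region length and fold had a Spearman correlation of -0.51, tags and fold one of -0.31, and region length and tags one of 0.89. All 3 measures come from the same reads, so this describes the calls. The 21 strong peaks had shorter regions and yet a higher median tag count than the rest, 172 against 145.

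The highest fold, 23.29 with 596 tags, belonged to a peak in 3200002M19Rik at chr7:109045031-109045331 (mm9, as are all peak positions). It lay 15192 bp from the TSS of that gene and 1555 bp past the end of Tomt, which the authors list as the closest gene. In the whole list it ranked 67th. Tgm2, the gene of an enzyme that cross-links proteins, followed with a fold of 20.2 and 276 tags at chr2:157955930-157956230, 15942 bp into the gene. Trio, a guanine nucleotide exchange factor for small GTPases, had a fold of 19.84 and 354 tags at chr15:27949148-27949448, and no other listed peak lay within 2035259 bp of it. Fam111a, which codes for a protease that works at replication forks, had a fold of 18.09 and 285 tags at chr19:12647756-12648056. None of these 4 genes had a listed promoter peak.

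Pink1, the kinase that marks damaged mitochondria for removal, had a fold of 16.78 with 124 tags at chr4:137875439-137875739, 6483 bp from the TSS. Rhbdf2, a catalytically inactive rhomboid protein that controls the release of membrane-bound growth factors, had a fold of 15.89 at 11043 bp. In Atn1, which codes for the corepressor atrophin-1, a peak with a fold of 15.86 lay 10672 bp inside the gene and 4177 bp upstream of Grcc10, its closest gene. Atp2c2, a calcium pump of the secretory pathway, had a fold of 15.19. Pax6, a homeobox factor of eye and pancreas, had one of 15.11 at 6448 bp. Cic, the repressor capicua, reached 14.36 and the LIM homeobox factor Lmx1b 13.71. Of the 12 peaks of highest fold, those in Pink1, Tex14 and Cic lay in genes with a listed promoter peak.

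**Figure D3:**
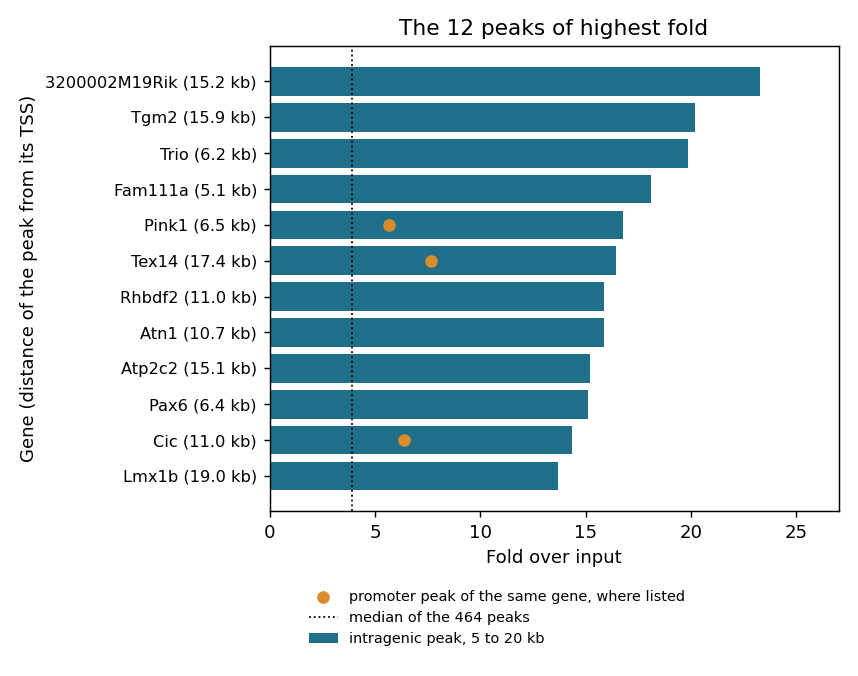
Fold over input of the 12 peaks of highest fold, with the distance from the TSS in brackets; orange points give the promoter peak of the same gene where one is listed, and the dotted line is the median of the 464 peaks. All 12 bars lie between 13.71 and 23.29, and the 3 promoter points lie below their bars.

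Tex14 codes for a protein of the bridges between male germ cells. Its peak at chr11:87235938-87236238, 17371 bp from the TSS, held 1049 tags, the most of any peak in the whole list, with a fold of 16.46. Another 5 intragenic peaks lay deeper in the gene, between 21763 and 66352 bp, with folds of 12.37 to 13.87 and 439 to 580 tags. Its promoter peak, shared with the recombination gene Rad51c, was weaker, with a fold of 7.64 and 125 tags. None of the other 11 genes of highest fold held more than 2 intragenic peaks. The second highest tag count, 937, belonged to 3830403N18Rik on chromosome X at 53400946 to 53401246, where the fold was 3.81 and thus below the median of the 464. Many tags with a low fold also marked Bcl2l1, the gene of the survival protein Bcl-xL (386 tags, fold 3.19, 16452 bp), while St5 combined 450 tags with a fold of 5.5. How many reads with several matches in the genome contribute at these places was not tested.

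The next question was whether genes with a peak at 5 to 20 kb also carry E2F1 at their own promoter. This held for 82 of the 464 peaks (17.7%, exact binomial 95% interval 14.3% to 21.5%), in 80 genes, while all 2288 intragenic peaks give 16.1%. The share was 14.3% for peaks within 5 kb and 16.0% for those beyond 20 kb, and neither difference was called (odds ratio 1.29, adjusted exact p = 0.216, and odds ratio 1.12, adjusted exact p = 0.429). With limits of 4000 and 25000 bp both were called (odds ratios 1.59 and 1.35, adjusted exact p = 0.0211 for each). For 314 peaks (67.7%) the gene had neither a promoter peak nor a further intragenic one. The nearest other listed peak lay at a median of 51219 bp, and 27 peaks had one within 5000 bp.

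In genes with both, the promoter peak was the stronger one in 63 cases and the intragenic peak in 19. The median folds were 6.08 at the promoter and 3.75 inside, with a median ratio of 0.674. The same order holds without pairing, with a median fold of 6.49 over all 2625 promoter peaks and 3.91 over the 464 peaks. A gene with several promoter peaks entered with the highest promoter fold. Across the 82 pairs the 2 folds had a Spearman correlation of -0.01, given as a description. Each pair shares its libraries, and 2 of the 80 genes enter with 2 intragenic peaks.

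The highest promoter folds among these genes stood beside intragenic folds near or below the median of the window. Rnf168, a ubiquitin ligase that acts at DNA breaks, had a promoter fold of 28.17 with 592 tags and an intragenic fold of 4.44 at 10882 bp, chr16:32288427-32288727. Smc4, a core subunit of condensin, had folds of 21.18 and 2.90, the second at 14474 bp. 1110020G09Rik had 19.04 and 3.58, and Smc3, a core subunit of cohesin, 15.56 and 3.64 at 17690 bp. Picked after their values were seen, Ckap5, a microtubule polymerase of the spindle (13.36 and 3.02), the cell cycle phosphatase gene Cdkn3 (11.62 and 3.14), the histone chaperone gene Nasp (10.01 and 2.51) and the kinesin gene Kif22 (9.82 and 3.77) showed the same order. Tnk2, also picked after its values were seen, had the opposite order, with 9.38 at the promoter and 13.51 inside. Of the promoters printed above, that of Rnf168 holds the E2F core and that of Smc3 does not.

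The 6 highest ratios of intragenic to promoter fold lay between 1.90 and 2.96. Pink1 had a fold of 16.78 inside against 5.67 at its promoter, a ratio of 2.96. Mtf1, the metal-responsive factor that induces metallothioneins, had 12.94 at chr4:124486672-124486972 against 4.78, a ratio of 2.71. In Cic the folds were 14.36 and 6.36, in the zinc finger gene Zfp13 10.71 and 4.83, in Tex14 16.46 and 7.64, and in Etfb, a subunit of the flavoprotein that carries electrons from fatty acid oxidation, 8.31 and 4.37. Phf19, a Polycomb-associated factor, had nearly equal folds, with 7.37 inside and 7.44 at its promoter.

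**Figure D4:**
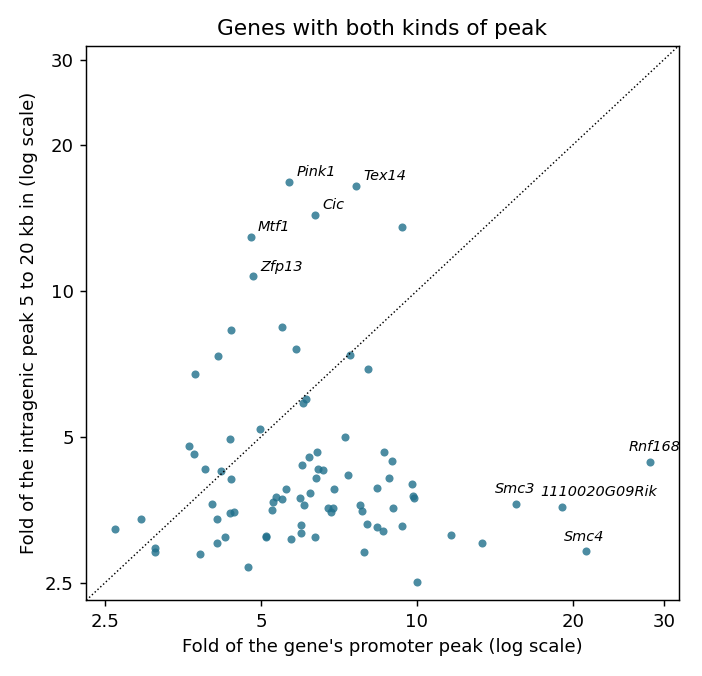
Fold of the intragenic peak at 5 to 20 kb against the fold of the promoter peak of the same gene, both on log scales; each point is 1 of 82 intragenic peaks and the dotted line marks equal folds. Below the line lie 63 points, with Rnf168, Smc4, 1110020G09Rik and Smc3 farthest to the right, and 19 lie above it, with Pink1, Tex14 and Cic highest.

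Where 2 peaks of the window shared a gene, the widest gap was in Tgm2, with folds of 20.2 at 15942 bp and 3.56 at 8761 bp. In the other 10 genes all folds lay between 2.5 and 6.14. Pxn, the gene of the focal adhesion protein paxillin, had 6.04 and 4.88 at places 2075 bp apart, and Phf17, a subunit of a histone acetyltransferase complex, 4.44 and 6.14 at 2400 bp. In Thoc2, a subunit of the mRNA export complex TREX, the folds were 5.93 and 3.91, and in the Golgi gene Cog4 4.39 and 4.42. Mastl, the Greatwall kinase of mitotic entry, named after its values were seen, had 3.48 and 4.95 beside a promoter fold of 4.35.

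Other genes stood close to many of these peaks. A second gene was listed for 218 of the 464, never under the authors' label for a peak inside a gene. Peaks with no entry other than inside a gene numbered 246 of the 464. They numbered 171 of the 378 within 5 kb and 1279 of the 1446 beyond 20 kb. The counts that follow were not made for those 2 classes. The peak lay upstream of that gene in 127 cases, past its end in 90 and in its 3' untranslated region in 1. For 90 peaks the authors named the other gene as the closest. The median fold was 3.96 where a second gene was listed and 3.90 where none was. In 11 cases the peak lay within 5000 bp upstream of another TSS, with a median fold of 4.88 and a range from 3.37 to 15.86, too few to say more. A promoter peak of any gene lay within 20000 bp of 98 peaks, and for 17 of these it belonged to another gene.

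The gene lists cover cell division, liver metabolism, signalling and cell structure, with 523 genes in 19 lists, and no test was run on them. A peak at 5 to 20 kb was found in 19 listed genes (3.63%), where the share over 21900 RefSeq protein-coding genes was 2.04%. Promoter peaks were found in 150 of the listed genes (28.7%), and in 13.2% of all protein-coding genes. The lists were drawn up with earlier results of these data known, so their higher shares are not read as enrichment. The median fold of the 19 peaks was 3.45, below the 3.91 of all 464.

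Cell division genes held more promoter peaks than peaks of the window. The same order held for the listed genes as a whole (150 and 19 genes) and for all protein-coding genes (13.2% and 2.04%). Among genes for G1/S control and replication, 24 of 41 genes had a promoter peak and 2 a peak at 5 to 20 kb. Ccna2, the gene of cyclin A2, had a fold of 4.17 with 274 tags at 6657 bp, at chr3:36464115-36464415, and a fold of 7.36 at its promoter with the same number of tags. Cdk6, a kinase of the G1 phase, had 2.99 at 15717 bp and a further peak of 2.81 deeper in the gene. Of 25 genes of G2/M and mitosis 12 had a promoter peak. Ect2, an exchange factor of cytokinesis, was the only one with a peak in the window (fold 3.45, 15805 bp), and it had 2 deeper ones with folds of 3.24 and 3.57. The E2F family and pocket proteins (0 of 18, with 8 promoters) and DNA repair (0 of 26, with 12 promoters) had none. With a share of 2.04% over all protein-coding genes, lists of the sizes used here can hold none, and nothing is read from that. In the list of apoptosis and p53, Bcl2l1 was the 1 of 22, with a promoter fold of 8.62.

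Among metabolic genes each list had at most 1. Srebf1, the gene of the lipogenic factor SREBP-1, had a fold of 2.84 with 116 tags at chr11:60023802-60024102, 10004 bp from the TSS, as the 1 of 23 lipogenic genes. Pfkfb1, the liver enzyme that sets fructose 2,6-bisphosphate, had 6.91 at 5914 bp, beside 8.06 at the promoter and 3.81 upstream of it (1 of 23 in glycolysis). Cyp4a14, a fatty acid hydroxylase, had 4.36 with 72 tags (1 of 23 in fatty acid oxidation). Pdpk1, the kinase that activates AKT, had 5.13 (1 of 27), and Serpinc1, which codes for antithrombin, 4.50 (1 of 26). The lists of drug, bile acid and amino acid metabolism (28 genes) and of autophagy, lysosome and clock (31 genes) had none.

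Hepatocyte transcription factors and nuclear receptors had 3 of 34. Nr2f2, the gene of the orphan receptor COUP-TFII, had a fold of 11.74 with 197 tags at chr7:77503868-77504168, 7453 bp from the TSS, and a second peak of 5.98 lay 2625 bp from it, 4828 bp from the TSS. Nr5a2, the receptor LRH-1, had 3.10 at 6956 bp, and Nr1h4, the bile acid receptor FXR, 3.08 at 17498 bp. Co-regulators and chromatin enzymes had 2 of 41, the histone demethylase gene Kdm4c with 5.33 and the acetyltransferase gene Crebbp with 2.79. The list of actin cytoskeleton and adhesion genes had 3 of 33, the E-cadherin gene Cdh1 with 5.84, Rhoa with 3.53 and the exchange factor gene Arhgef12 with 3.14. The list of MAPK, Wnt, TGF-beta and Hippo signalling had 0 of 32, and 8 of its genes held a peak beyond 20 kb. Over all lists, 69 of 523 genes held a peak beyond 20 kb and 19 one at 5 to 20 kb, the same order. The deposited peak numbers run to 18908 while 5667 peaks are listed, so a gene without a listed peak is not shown to be unbound.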

How the data were processed

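One peak list, made from an E2F1 ChIP and an input record of primary mouse hepatocytes, was analysed. The submitters' processing notes list Bowtie2 (2.1.0) and the builds mm9 and NCBIM37. The column names, per the file headers, are those of MACS peak calls. Its version and settings, and any pooling of replicates, are not given in the sources used. Per the file headers, the deposited values are tag counts per region, pileup height (a signal), fold (a ratio of ChIP over expected background), a score of 10 times the negative log10 of the p-value, and a false discovery rate in percent. A further column, FERR, is explained nowhere and was not used. Each peak has a 301 bp window around its summit, and the distance to the TSS runs from the window edge. Library read totals are not given, so intervals cover counting error over peaks only.

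Peaks with a promoter entry were left out, and the smallest distance over entries inside a gene set the class. Shares have exact (Clopper-Pearson) 95% intervals. Fisher's exact tests, two-sided, were Benjamini-Hochberg adjusted over 8 tests with a threshold of 0.05 (Python 3.11.15, scipy 1.17.1, pandas 2.3.3) and were tested on simulated data. Symbols were matched to RefSeq of GRCm38.p6 by symbol or unique synonym, and promoter sequences are RefSeq's of that build. The length of the motif searched in them was shortened from 8 to 7 letters after the first shares were seen. No reference coordinate was compared with a peak position. The members and gene lists were chosen with earlier results of these data known. Genes are named for the 12 highest folds and 5 highest tag counts, position next to a distance limit, membership of a list, 2 peaks in the window, or the balance of promoter and intragenic fold; others are marked as chosen later. The peaks of 2 genes in the lists are counted but not reported here by name. Inclusion in 2 genes, a further reason for naming, occurred for no peak. Alternatives were stricter peak thresholds, other distance limits, distance from the window centre, only peaks with no second gene, a strength limit at the upper quartile, and promoter peaks defined by distance. Those for the tests of tags and false discovery rate were chosen after seeing the data.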

Additional observations from a re-analysis of the deposited data

How the results depend on the processing

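Of 81 values recomputed under the alternatives, 53 changed little: tests kept their direction and side of the threshold, medians and shares stayed within their interval, and numbers of peaks stayed within 1.5 times. The 28 values for tags and false discovery rate were added after seeing the data. The number of peaks was 466 with distances from the window centre, 615 with limits of 4000 and 25000 bp, 84 with a false discovery rate of at most 1%, 118 with a score of at least 100, 246 with no second gene listed and 301 with limits of 6000 and 15000 bp. With the rate limit the median fold was 7.415, the median tags 172 and the share with a promoter peak in the same gene 10.7%; with the score limit they were 5.515, 166 and 11.9%. Fewer peaks are tested there, and those left are chosen by strength. The list medians used as thresholds in the tests were taken anew over the peaks left. Against peaks within 5 kb, the odds ratio for fold was 0.907 and 0.753 under these 2 limits and no longer called, and the one for the false discovery rate was 0.702 and 0.575, also lost. The one for tags was called with no second gene listed (0.609), with limits of 4000 and 25000 bp (0.721) and at the upper quartile (0.594). Against peaks beyond 20 kb, the odds ratio for fold was called with the score limit (2.27), with limits of 6000 and 15000 bp (1.55) and at the upper quartile (2.37), and the one for the false discovery rate was lost with no second gene listed (1.27) and with the rate limit (2.03). The one for tags turned below 1 with the rate limit (0.709) and the score limit (0.831), neither called. For a promoter peak in the same gene, both odds ratios were called with limits of 4000 and 25000 bp (1.59 within 5 kb, 1.35 beyond 20 kb), and the second fell below 1 with the rate limit (0.908) and with no second gene listed (0.980), neither called. The cause of these changes was not tested. No paired analysis was possible because the list has 1 ChIP and 1 input record and no replicate columns.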

Other observations

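The share of listed peaks that lay inside a gene at 5 to 20 kb varied by chromosome. Chromosome 3 had the highest share, 35 of 263 (13.3%, exact binomial 95% interval 9.45% to 18.0%), and chromosome 15 the lowest of the autosomes, 11 of 224 (4.91%, interval 2.48% to 8.62%). On chromosome X the share was 14 of 126 (11.1%, interval 6.21% to 17.9%), and chromosome Y had 4 listed peaks, none of them in the window. The overall share was 8.19%. These extremes were picked from 21 chromosomes after their values were seen, and no test of the differences was run.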
